A study of Mus musculus with 11 samples.

Results

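Retinoic acid signalling and the step into meiosis were followed in newborn mouse ovaries through 9 genes: Stra8, Meioc, Aldh1a1, Aldh1a2, Cyp26a1, Cyp26b1, Rarb, Crabp1 and Crabp2. Members were all probes annotated with 1 of these symbols, which gave 13 probes of the 45281 on the array. Of these 13 probes, 11 were above background on at least 3 of the 11 arrays and were tested, as were 24451 probes in all. The remaining pair, the probe of Stra8 and 1 of 2 probes of Cyp26a1, was not above background on any array. The study compared total RNA of ovaries from wild-type mice (n = 4), Sohlh1 knockout mice (Sohlh1 KO, n = 4) and Sohlh2 knockout mice (Sohlh2 KO, n = 3), hybridized to Illumina MouseWG-6 v2 BeadChips. All mice were newborn, on a C57BL/6/129S6/SvEv background, and the labels name no other allele or treatment. They give no details of the knockout alleles, and whether a replicate was 1 animal or a pool is not stated, so p-values measure only the spread between these samples. The question was which transcripts differ when either of these germ cell transcription factors of the basic helix-loop-helix family is missing.

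Retinoic acid is made from retinol in successive oxidations, the last by retinaldehyde dehydrogenases (the Aldh1a enzymes), and is broken down by cytochromes of the Cyp26 family. It is carried in the cell by the binding proteins Crabp1 and Crabp2 and acts through nuclear receptors such as Rarb, whose own gene is a classical retinoic acid target. In the fetal ovary it is known for inducing Stra8, which with its partners switches germ cells from mitosis to meiosis, while Meioc holds germ cells in meiotic prophase. By birth most mouse oocytes have reached the late part of that prophase.

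Promoter sequences of 2 members are shown because a retinoic acid response element lies in them. The RefSeq promoter table (GRCm38.p6, 250 bases before to 50 after a transcript's start) held 9 promoters for 8 of the 9 members. Crabp2 was not among them. A retinoic acid response element was searched on both strands as a direct repeat of the half-site AGGTCA (or its variants GGGTCA and also AGTTCA and also GGTTCA) with a spacing of 5 bases. It was found in 32 of 32851 promoters (0.0974%), and among the members in those of Rarb and Cyp26a1. The 250 bases before the start are given 5′ to 3′ on the gene's strand with the repeat in capitals, for Rarb at chr14:16575477-16575726 (minus strand) and for Cyp26a1 at chr19:37697558-37697807 (plus strand).
Rarb: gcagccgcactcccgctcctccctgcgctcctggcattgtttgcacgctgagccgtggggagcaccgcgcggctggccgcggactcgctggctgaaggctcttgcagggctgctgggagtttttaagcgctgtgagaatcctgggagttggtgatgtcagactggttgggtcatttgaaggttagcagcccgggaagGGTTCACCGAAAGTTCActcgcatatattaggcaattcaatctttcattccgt
Cyp26a1: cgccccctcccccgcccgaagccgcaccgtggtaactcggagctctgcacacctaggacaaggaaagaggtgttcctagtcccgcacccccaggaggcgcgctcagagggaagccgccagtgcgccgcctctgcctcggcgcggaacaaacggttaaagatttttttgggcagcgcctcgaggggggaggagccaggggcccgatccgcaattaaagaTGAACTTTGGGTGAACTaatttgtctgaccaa
In Rarb the repeat is on the gene's own strand and begins 53 bases before the start. This transcript start lies inside the annotated locus, chr14:16430839-17082331, and not at its 5′ end. In Cyp26a1 the repeat reads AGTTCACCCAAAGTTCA on the other strand and lies from -32 to -16 relative to the start, counted on the gene's strand. A match describes the letters and shows no binding. The same half-sites with a spacing of 2 (0.268% of all promoters) or 1 (0.222%), and the E-box CACGTG (7.15%), were in 0 of the 9 member promoters. The wider E-box CANNTG, which includes CACGTG, was in 5 of 9 member promoters and in 72.3% of all. GCGGGA, on either strand, was in 5 of 9 and in 6562 of all 32851.

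Sohlh1 was detected in every group. Its probes averaged 11.14 and 11.26 in wild type, 8.66 and 8.69 in Sohlh1 KO, and 8.51 and 8.70 in Sohlh2 KO, in normalized log2 intensity, the scale of all levels below. Sohlh2 averaged 5.01 in wild type, 5.71 in Sohlh1 KO and 4.70 in Sohlh2 KO. It was above background on 3 of 4, 4 of 4 and 0 of 3 arrays of these groups. Against wild type its log2 difference was 0.70 in Sohlh1 KO (adjusted p = 0.0127 by limma). In Sohlh2 KO it was -0.31 and did not pass (adjusted p = 0.297 by limma), with wild type itself near background. Where these probes lie relative to the deleted parts is not given in the sources used here. Background was 149.3 to 158.9 intensity units over the 11 arrays, or 4.92 to 5.24 in normalized log2 intensity. Wild-type arrays and Sohlh1 KO 1 and 2 were on 1 chip, and the other Sohlh1 KO arrays and all Sohlh2 KO arrays were on another. Sohlh2 KO and wild type therefore shared no chip, and a fit with chip as a block links them only through Sohlh1 KO. The number of arrays limits the precision of every comparison. In whole-ovary RNA, fewer cells of a type and less RNA per cell cannot be told apart.

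In both knockouts the retinoic acid synthesizing enzyme Aldh1a2, the receptor Rarb, both cellular binding proteins and Meioc were higher than in wild type, while the Cyp26 enzymes and Aldh1a1 passed in neither comparison. Of the 13 member probes, 7 were called higher in Sohlh1 KO (adjusted p under 0.05 by limma with Benjamini-Hochberg adjustment over all 24451 tested probes), 0 were lower, 4 did not pass and 2 were not tested. Over all tested probes, 15.3% were called higher in that comparison. In Sohlh2 KO the counts were also 7 higher, 0 lower, 4 not passing and 2 not tested, against 11.7% of all tested probes called higher. The 7 probes were the same in both knockouts and belong to 5 of the 9 genes. Both comparisons use the same wild-type arrays. The members were chosen with earlier results of these data known, so the shares over all probes give no test of an excess.

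**Figure D1:**
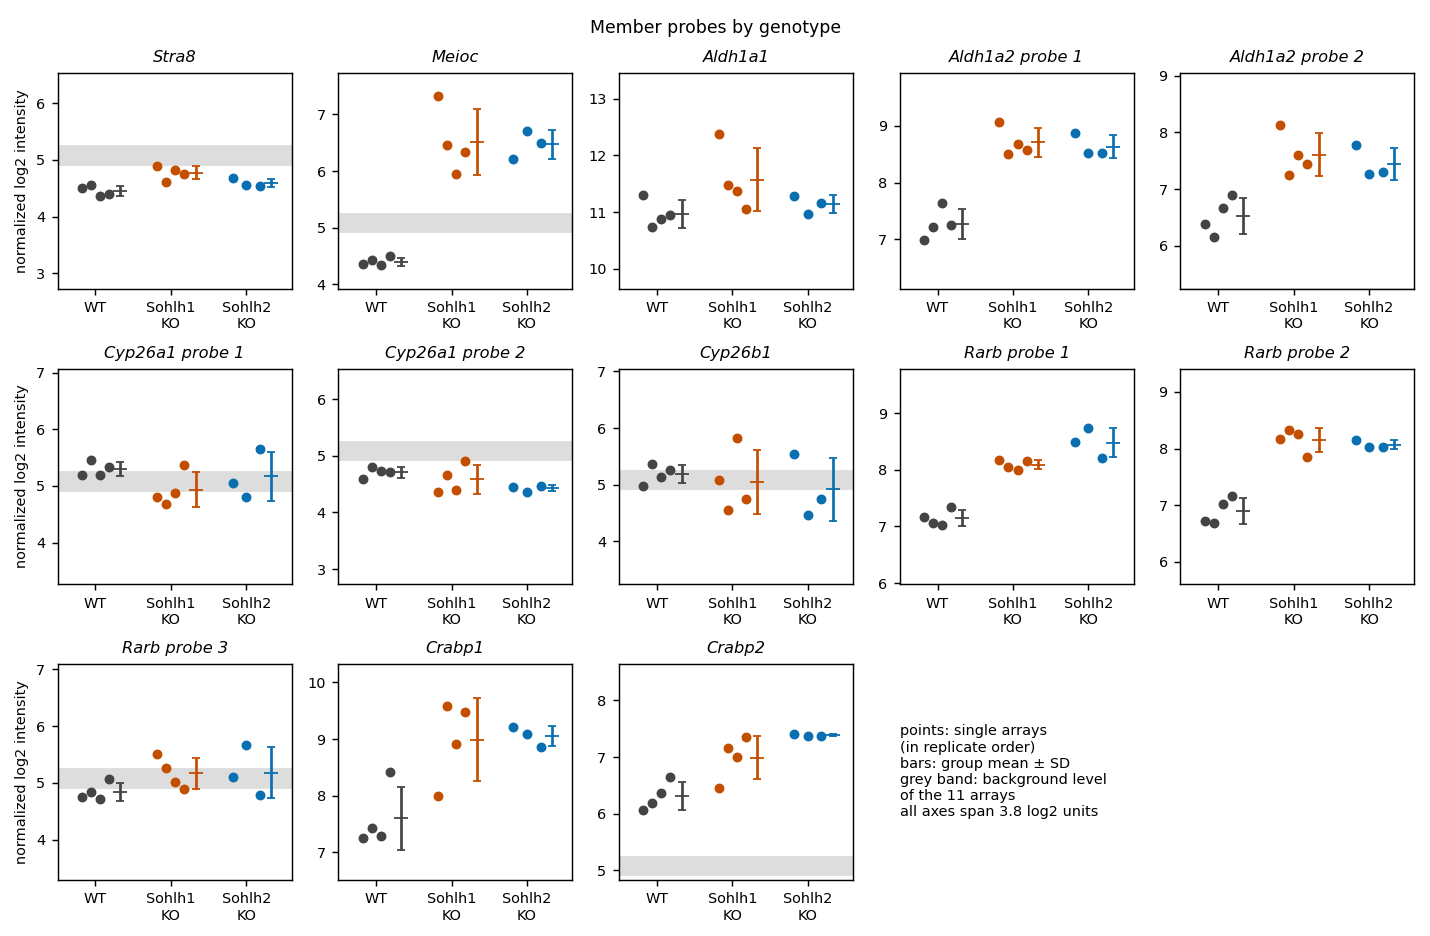
Normalized log2 intensity of the 13 member probes on each array of 4 wild-type (WT), 4 Sohlh1 KO and 3 Sohlh2 KO samples, with the group mean and SD beside the points and the background level of the arrays as a grey band. Meioc lies below the band in wild type and above it on all 7 knockout arrays, Stra8 and Cyp26a1 probe 2 never rise above it, and Aldh1a2 (both probes) and Rarb probes 1 and 2 show no overlap between wild type and either knockout.

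Meioc, which keeps germ cells in meiotic prophase, was higher in both knockouts. In wild type its probe read 4.35, 4.42, 4.33 and 4.49, not well above background on any of the 4 arrays. In Sohlh1 KO it read 7.32, 6.46, 5.94 and 6.33, and in Sohlh2 KO 6.20, 6.70 and 6.504. Every knockout array was above background and above every wild-type array, and Sohlh1 KO 1 was the highest. Because the wild-type side is only a bound, with its arrays set at the background level, Meioc was at least 2.88-fold higher in Sohlh1 KO and at least 2.80-fold higher in Sohlh2 KO under the background correction used here, with its offset of 16. The size depends on that step: the log2 difference was 2.11 and 2.07 as fitted, 1.20 and 1.16 with an offset of 50, and 0.79 and 0.75 with no background correction, and it passed in all 3. The measured mean was 4.40 ± 0.07 (SD, n = 4) in wild type, and the knockouts averaged 6.51 ± 0.58 (SD, n = 4) for Sohlh1 KO and 6.47 ± 0.25 (SD, n = 3) for Sohlh2 KO. The limma fit gave adjusted p = 1.17e-05 for Sohlh1 KO and 3.81e-05 for Sohlh2 KO against wild type. The probe entered that test only through the knockout arrays, since no wild-type array was above background. With no probes filtered out, adjusted p was 8.82e-05 for Sohlh1 KO and 0.000246 for Sohlh2 KO (limma). Between the knockouts the difference was 0.04 in log2, with a 95% interval of -0.50 to 0.58 (adjusted p = 0.986 by limma).

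Stra8, the retinoic acid induced gatekeeper of meiosis, could not be followed. Its probe read 122.84 to 135.3 intensity units in wild type, from 138.4 to 148.42 in Sohlh1 KO and from 134.76 to 140.69 in Sohlh2 KO. None of these 11 values was above the background of its array, so Stra8 was not well above background in any genotype and received no test.

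Germ cell markers were called in both directions and oocyte markers lower in the knockouts, with levels given as linear normalized intensity summed over each list. The 6 measured of 7 germ cell markers summed to 5420 to 5700 in wild type, from 4050 to 7870 in Sohlh1 KO and from 3920 to 4390 in Sohlh2 KO. In Sohlh1 KO 3 of the 6 were called higher and 1 lower, and in Sohlh2 KO 2 were higher and 2 lower. The other member of the list, Mael, had no probe above background on enough arrays. The 6 oocyte markers summed to 28400 to 34700 in wild type, from 2720 to 4520 in Sohlh1 KO and from 3780 to 4710 in Sohlh2 KO, with 4 of 6 lower in Sohlh1 KO, 5 of 6 lower in Sohlh2 KO and 0 higher. All 6 were above background on every wild-type array, and Oosp1 was above it on 0 of 4 Sohlh1 KO and 1 of 3 Sohlh2 KO arrays. Over all 13350 genes by 1 probe each, 15.4% were called higher and 15.9% lower in Sohlh1 KO, and 11.7% and 12.5% in Sohlh2 KO. The part of the marker shifts in the Meioc difference was not tested.

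Among the synthesizing enzymes, Aldh1a2 differed and Aldh1a1 did not pass. Aldh1a2 makes retinoic acid from retinaldehyde and is the main such enzyme of the embryo. Its probe 1 read 6.99, 7.22, 7.63 and 7.25 in wild type. It read 9.07, 8.50, 8.69 and 8.58 in Sohlh1 KO and 8.88, 8.52 and 8.52 in Sohlh2 KO. All 7 knockout arrays lay above all 4 wild-type arrays, and the lowest of them was 0.87 above the highest wild-type array. The change was 2.71-fold in Sohlh1 KO (1.44 in log2, SE 0.17, adjusted p = 2.31e-05 by limma) and 2.57-fold in Sohlh2 KO (1.36 in log2, SE 0.18, adjusted p = 0.000101 by limma).

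Aldh1a2 probe 2 gave the same order at a lower intensity. It read 6.38, 6.16, 6.66 and 6.90 in wild type, 8.13, 7.24, 7.61 and 7.44 in Sohlh1 KO, and 7.77, 7.27 and 7.30 in Sohlh2 KO. Again neither knockout overlapped wild type, and the probes correlated at r = 0.934 over the 11 arrays, which share the genotype differences. The change was 2.11-fold in Sohlh1 KO (adjusted p = 0.00175 by limma) and 1.89-fold in Sohlh2 KO (adjusted p = 0.0104 by limma). The call in Sohlh2 KO was lost with chip as a block (log2 difference 1.08, adjusted p = 0.102), without wild type 2 and 3 (0.80, adjusted p = 0.0897) and without Sohlh2 KO 2 (0.75, adjusted p = 0.0587 by limma).

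Aldh1a1, another retinaldehyde dehydrogenase of the same family, read 11.31, 10.73, 10.87 and 10.94 in wild type. In Sohlh1 KO it read 12.37, 11.48, 11.38 and 11.06, and in Sohlh2 KO 11.28, 10.97 and 11.15. The groups overlapped, and Sohlh1 KO 1 stood highest. The log2 difference was 0.61 in Sohlh1 KO (95% interval 0.10 to 1.11, adjusted p = 0.0666 by limma) and 0.17 in Sohlh2 KO (-0.37 to 0.72, adjusted p = 0.675 by limma). On the chip that held wild type and Sohlh1 KO 1 and 2, the difference was 0.96, and it passed with chip as a block (adjusted p = 0.0119 by limma). It passed as well without Sohlh1 KO 4 (0.78, adjusted p = 0.0225) and with the replicate number as a block (adjusted p = 0.0189 by limma).

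The Cyp26 enzymes, which clear retinoic acid, were near background and did not pass in either knockout. Cyp26b1, the enzyme that keeps retinoic acid from germ cells of the fetal testis, read 4.99, 5.36, 5.14 and 5.27 in wild type. It read 5.09, 4.56, 5.83 and 4.74 in Sohlh1 KO and 5.54, 4.46 and 4.76 in Sohlh2 KO. It was above background on 4 of 4 wild-type, 2 of 4 Sohlh1 KO and 1 of 3 Sohlh2 KO arrays, and the knockout values lay on both sides of the wild-type range. The log2 difference was -0.13 in Sohlh1 KO (95% interval -0.71 to 0.44, adjusted p = 0.753 by limma) and -0.27 in Sohlh2 KO (-0.89 to 0.36, adjusted p = 0.555 by limma).

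Cyp26a1, whose gene is itself induced by retinoic acid, read 5.199, 5.46, 5.19 and 5.34 in wild type with probe 1. The same probe read 4.80, 4.68, 4.87 and 5.37 in Sohlh1 KO and 5.04, 4.81 and 5.65 in Sohlh2 KO. It was above background on 4 of 4 wild-type arrays and on 1 array of each knockout, and the groups overlapped. The log2 difference was -0.37 in Sohlh1 KO (95% interval -0.78 to 0.05, adjusted p = 0.177 by limma) and -0.13 in Sohlh2 KO (-0.58 to 0.32, adjusted p = 0.706 by limma). Within the chip shared with wild type, the Sohlh1 KO difference was -0.56 and passed (adjusted p = 0.0395 by limma), but not with chip as a block (adjusted p = 0.0928). Probe 2 lay between 4.36 and 4.91 on all 11 arrays, below background on each.

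The receptor Rarb, a nuclear receptor for retinoic acid and a target of it, was higher in both knockouts by 2 of its 3 probes. Probe 1 read 7.17, 7.06, 7.03 and 7.34 in wild type, 8.18, 8.05, 7.997 and 8.15 in Sohlh1 KO, and 8.49, 8.74 and 8.21 in Sohlh2 KO. The 3 groups did not overlap, with Sohlh2 KO highest. Against wild type the change was 1.92-fold in Sohlh1 KO (0.94 in log2, SE 0.14, adjusted p = 0.000149 by limma) and 2.51-fold in Sohlh2 KO (1.33 in log2, SE 0.15, adjusted p = 1.61e-05 by limma). The gap between the knockouts, a log2 difference of -0.39 for Sohlh1 KO minus Sohlh2 KO (95% interval -0.70 to -0.07), did not pass (adjusted p = 0.472 by limma).

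Rarb probe 2 read 6.73, 6.69, 7.01 and 7.16 in wild type, 8.17, 8.32, 8.25 and 7.85 in Sohlh1 KO, and 8.15, 8.03 and 8.03 in Sohlh2 KO. All knockout arrays were above all wild-type arrays, and the knockouts overlapped each other. The change was 2.38-fold in Sohlh1 KO (adjusted p = 2.08e-05 by limma) and 2.25-fold in Sohlh2 KO (adjusted p = 0.000103 by limma). Rarb probe 3 read 4.72 to 5.07 in wild type, from 4.89 to 5.51 in Sohlh1 KO and from 4.78 to 5.66 in Sohlh2 KO, and was above background on 4 of 11 arrays. Its log2 differences of 0.33 and 0.34 did not pass (adjusted p = 0.227 and 0.271 by limma). The probes therefore disagreed in their calls, not in sign. The order of group levels also differed between probes 1 and 2, so the knockouts cannot be ranked for Rarb.

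Crabp1, a cellular retinoic acid binding protein, read 7.26, 7.43, 7.28 and 8.43 in wild type. In Sohlh1 KO it read 7.997, 9.58, 8.91 and 9.48, and in Sohlh2 KO 9.21, 9.09 and 8.87. Wild type 4 was higher than Sohlh1 KO 1, so those groups overlapped, while all Sohlh2 KO arrays lay above wild type. The change was 2.62-fold in Sohlh1 KO (1.39 in log2, SE 0.33, adjusted p = 0.00592 by limma) and 2.74-fold in Sohlh2 KO (1.46 in log2, SE 0.35, adjusted p = 0.00914 by limma).

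Crabp2, which delivers retinoic acid to its receptors in the nucleus, read 6.07, 6.18, 6.36 and 6.64 in wild type. It read 6.45, 7.16, 7.004 and 7.35 in Sohlh1 KO and 7.40, 7.38 and 7.38 in Sohlh2 KO. Sohlh1 KO 1 again fell inside the wild-type range, and the 3 Sohlh2 KO arrays were nearly equal and above every other array. The change was 1.60-fold in Sohlh1 KO (0.68 in log2, SE 0.18, adjusted p = 0.0139 by limma) and 2.10-fold in Sohlh2 KO (1.07 in log2, SE 0.20, adjusted p = 0.00153 by limma). Across the 11 arrays Crabp1 and Crabp2 correlated at r = 0.933, a description over arrays that share the genotype differences.

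The calls of both binding proteins were lost in the fit that blocks for chip, and the part of chip itself was not tested. With chip as a block, Crabp1 differed by 1.19 in log2 in Sohlh1 KO (adjusted p = 0.0526) and by 1.05 in Sohlh2 KO (adjusted p = 0.305 by limma). Crabp2 differed by 0.49 in Sohlh1 KO (adjusted p = 0.121) and by 0.70 in Sohlh2 KO (adjusted p = 0.190 by limma). For Sohlh1 KO these blocked differences equal those within the shared chip, which rest on Sohlh1 KO 1 and 2. Of these, Sohlh1 KO 1 had the lowest Crabp1 and Crabp2 of its group. Without wild type 2 and 3, adjusted p was 0.0913 and 0.108 for Crabp1 in Sohlh1 KO and Sohlh2 KO, and 0.112 for Crabp2 in Sohlh1 KO (limma). Stroma and mesenchyme markers summed to 34100 to 38600 in wild type, from 34700 to 43300 in Sohlh1 KO and from 35000 to 37500 in Sohlh2 KO, with 1 of 7 higher in Sohlh1 KO and 0 of 7 called in Sohlh2 KO. Markers of surface and ductal epithelium summed to 19100 to 24000, 10400 to 13200 and 11700 to 13000 in these groups, with Ovgp1 averaging 13.27 in log2 in wild type, 9.14 in Sohlh1 KO and 9.89 in Sohlh2 KO. Of the 8 measured markers of that list 1 was higher and 3 lower in Sohlh1 KO, and 2 were higher and 2 lower in Sohlh2 KO, Upk3b being higher in both. Among all 13350 genes, 15.4% were called higher and 15.9% lower in Sohlh1 KO, and 11.7% and 12.5% in Sohlh2 KO. The part of these markers in the differences was not tested.

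**Figure D2:**
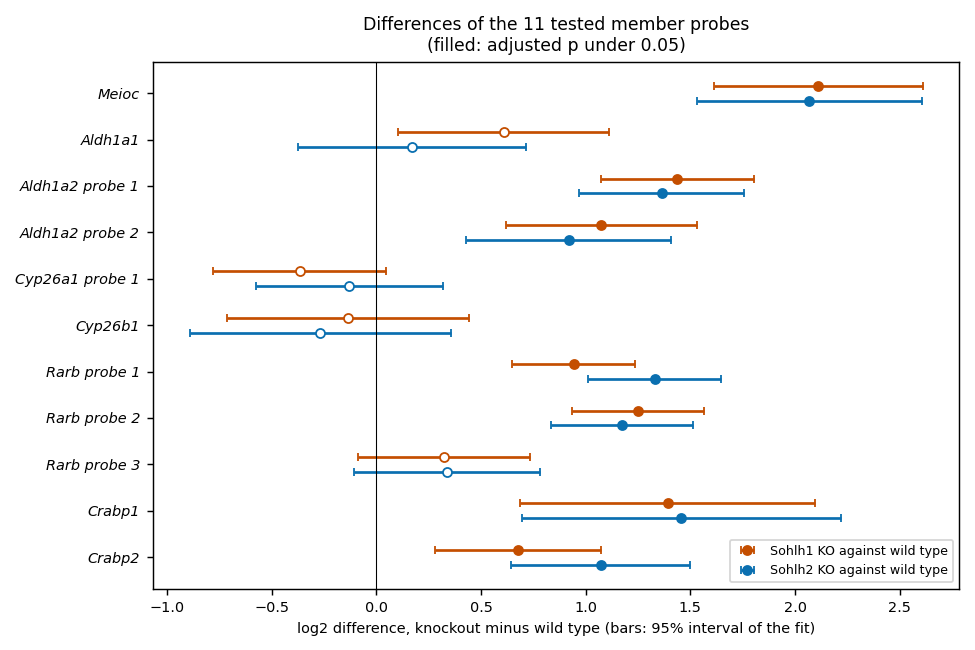
Log2 differences of the 11 tested member probes, knockout minus wild type, with the 95% intervals of the fit; filled points passed an adjusted p of 0.05. Meioc lies farthest to the right at 2.11 and 2.07, the intervals of the Cyp26 probes cross 0, and the intervals of the knockouts overlap for every probe.

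**Figure D3:**
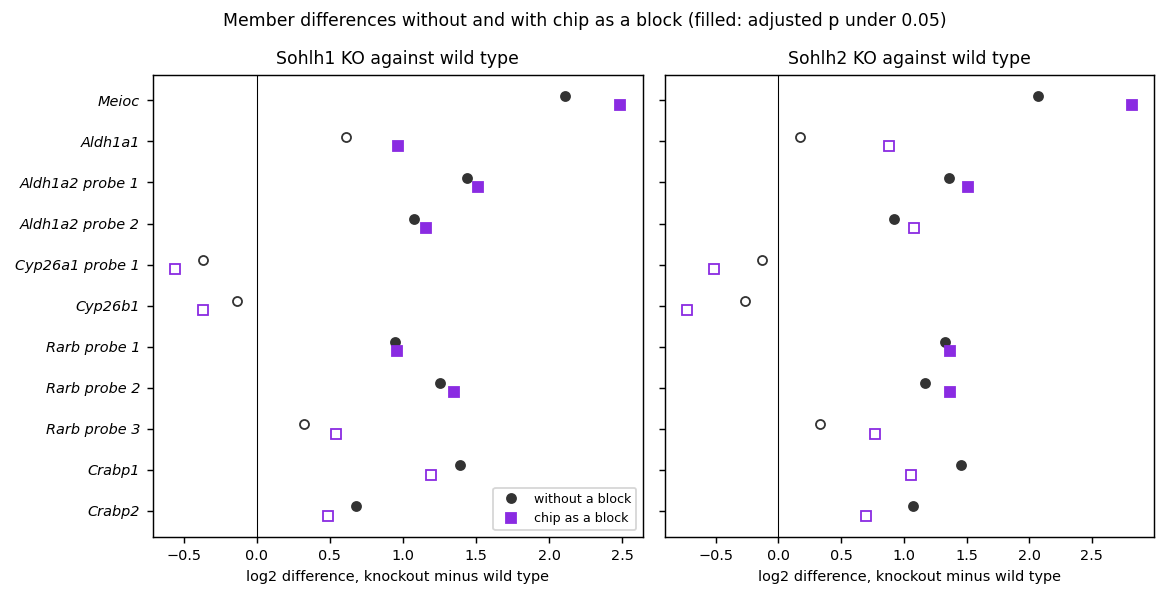
The same log2 differences without a block (circles) and with chip as a block (squares), filled where the adjusted p is under 0.05. Meioc, Aldh1a2 probe 1 and Rarb probes 1 and 2 stay filled in both panels, while Crabp1 and Crabp2 become open in both.

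With chip as a block, 6 member probes were called in Sohlh1 KO, where 5681 of all 24451 tested probes were called in either direction. In Sohlh2 KO 4 were called, beside 2515 of all tested probes. The 4 were Meioc (log2 difference 2.82, adjusted p = 0.000131), Aldh1a2 probe 1 (1.51, adjusted p = 0.00690), Rarb probe 1 (1.37, adjusted p = 0.00323) and Rarb probe 2 (1.36, adjusted p = 0.00421 by limma). In Sohlh1 KO the same 4 probes passed, and Aldh1a2 probe 2 and Aldh1a1 passed as well. The Aldh1a1 difference rested on few arrays: without a block it was 0.61 in log2 (adjusted p = 0.0666), fell short of the threshold in 10 of the 11 fits with 1 array left out, and was 0.34 without Sohlh1 KO 1 (adjusted p = 0.129) and 0.45 without wild type 2 and 3 (adjusted p = 0.368 by limma). Sohlh1 KO 1 had the highest Meioc, Aldh1a1 and Aldh1a2 of its group, by both Aldh1a2 probes, and the lowest Crabp1 and Crabp2. Leaving it out lost none of the 7 calls.

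The knockouts were compared with each other directly. Of the 11 tested member probes 0 were called by limma, and 1, Rarb probe 1, had an unadjusted p under 0.05. Over all tested probes 13 (0.0532%) were called in that comparison. The widest 95% intervals among the called members, for Crabp1, ran from -0.83 to 0.70 in log2, so differences of that size were not resolved.

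The genes most like a member over the 11 arrays were named by Pearson correlation of normalized log2 intensity, as a description. Meioc was most like Tex11 (r = 0.985), Cspg5 (0.984) and Idh1 (0.982). Aldh1a2 was most like Ggt5 (r = 0.991), Zcwpw1 (0.984) and Alg1 (0.983), and Rarb most like Nid2 (0.982), 4930470P17Rik (0.974) and Ssbp2 (0.974). Crabp1 was most like Mbd3l2 (r = 0.973), Nfatc4 (0.971) and Plekha8 (0.964), and Crabp2 most like Rab33a (0.977), Map4k4 (0.965) and Uxt (0.964). All members with a call were high in both knockouts, so genes with the same group pattern correlate with each of them.

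Other genes of the pathway were counted by 1 probe per gene, with 13350 genes measured, of which 15.4% were called higher and 15.9% lower in Sohlh1 KO, and 11.7% higher and 12.5% lower in Sohlh2 KO. Of 18 genes for retinol uptake, storage and oxidation, 13 were measured. In Sohlh1 KO 0 were higher and 4 lower, and in Sohlh2 KO 1 was higher and 2 lower. The median log2 difference of the list was 0.01 in Sohlh1 KO and 0.00 in Sohlh2 KO, beside 0.03 and 0.04 over all genes. Bco1, which cleaves beta-carotene to retinaldehyde, averaged 5.52 in wild type and was not well above background in either knockout, at least 1.33-fold lower in Sohlh1 KO (adjusted p = 7.48e-05) and at least 1.30-fold lower in Sohlh2 KO (adjusted p = 0.000369 by limma). Its probe entered that test only through the 4 wild-type arrays, since no knockout array was above background.

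Rbp4, the retinol carrier of plasma, fell from a mean of 7.37 ± 0.36 (SD, n = 4) to 6.29 ± 0.49 (SD, n = 4) when Sohlh1 was missing, 2.11-fold lower (adjusted p = 0.00317 by limma). In Sohlh2 KO it averaged 6.79 ± 0.07 (SD, n = 3) and did not pass. Fabp5, a fatty acid binding protein that also binds retinoic acid, was 1.86-fold lower in Sohlh1 KO (adjusted p = 0.0160) and 2.03-fold lower in Sohlh2 KO (adjusted p = 0.0149 by limma). With chip as a block Fabp5 lost both calls (adjusted p = 0.0851 and 0.285), and in Sohlh2 KO also without Sohlh2 KO 2 (adjusted p = 0.0769 by limma). Rdh11, a retinaldehyde reductase, was 1.37-fold lower in Sohlh1 KO (adjusted p = 0.0234), not without wild type 2 (adjusted p = 0.0681), and its other probe did not pass (adjusted p = 0.235 by limma). The 1 gene higher in Sohlh2 KO was Aldh1a7, a close relative of Aldh1a1, named after its value was seen, at 1.53-fold (adjusted p = 0.0351 by limma). It did not pass without wild type 1, 3 or 4 or any 1 of the Sohlh2 KO arrays (adjusted p from 0.0519 to 0.146), nor with cyclic loess (adjusted p = 0.0813 by limma).

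Of 16 receptors and coregulators, 11 were measured, and 1 was lower in each knockout, with 0 higher. List medians were -0.16 and 0.02 in log2. The 1 gene was Nrip1, a corepressor of nuclear receptors that itself responds to retinoic acid. It averaged 6.65 ± 0.42 (SD, n = 4) in wild type, and the knockouts averaged 5.56 ± 0.76 (SD, n = 4) for Sohlh1 KO and 5.59 ± 0.15 (SD, n = 3) for Sohlh2 KO, with adjusted p = 0.0176 and 0.0370 (limma). With chip as a block its difference was -0.52 in Sohlh1 KO (adjusted p = 0.203) and 0.09 in Sohlh2 KO (adjusted p = 0.925 by limma), the opposite sign. The call in Sohlh1 KO was lost without wild type 1 (adjusted p = 0.0560), and that in Sohlh2 KO without wild type 1, 3 or 4 or any 1 of the Sohlh2 KO arrays (limma). The other retinoic acid receptors, Rara and Rarg, did not pass in either knockout.

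**Figure D4:**
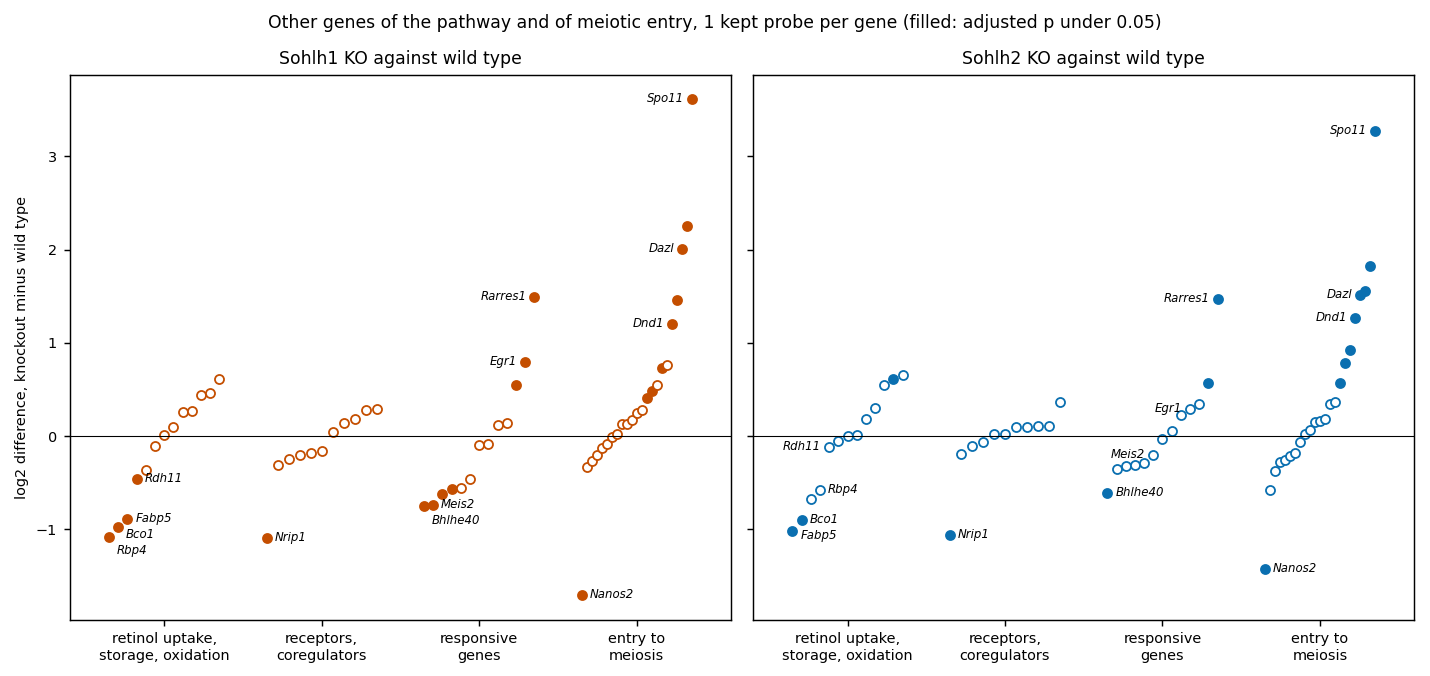
Log2 difference, knockout minus wild type, of each measured gene of 4 lists outside the members, ordered by value within a list, with filled points at an adjusted p under 0.05 and labels on the named genes. The meiotic entry list reaches 3.61 and 3.27 with Spo11, while the first 3 lists spread to both sides of 0.

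Of 17 genes described as responsive to retinoic acid, 13 were measured. In Sohlh1 KO 3 were higher, 4 lower and 6 did not pass, and in Sohlh2 KO 2 were higher, 1 lower and 10 did not pass, with list medians of -0.09 and -0.03. Rarres1, first described as a retinoic acid receptor responder, averaged 5.85 ± 0.29 (SD, n = 4) in wild type, and the knockouts averaged 7.34 ± 0.11 (SD, n = 4) for Sohlh1 KO and 7.31 ± 0.31 (SD, n = 3) for Sohlh2 KO. It was 2.82-fold higher in Sohlh1 KO (adjusted p = 1.56e-05) and 2.77-fold higher in Sohlh2 KO (adjusted p = 4.99e-05 by limma), and kept both calls in the fit that blocks for chip (adjusted p = 0.000331 and 0.0122).

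Meis2, a homeobox gene that retinoic acid induces, was 1.67-fold lower in Sohlh1 KO (adjusted p = 0.000457 by limma), by 2 of its 3 measured probes. In Sohlh2 KO 1 of its 3 probes passed, not the one that stands for the gene (adjusted p = 0.295 by limma). Bhlhe40, a basic helix-loop-helix repressor, was 1.68-fold lower in Sohlh1 KO (adjusted p = 0.00114) and 1.52-fold lower in Sohlh2 KO (adjusted p = 0.0101 by limma). Its call in Sohlh2 KO was lost once chip was a block (adjusted p = 0.176) and without Sohlh2 KO 4 (adjusted p = 0.0590 by limma). Egr1, an immediate early transcription factor, was 1.74-fold higher in Sohlh1 KO (adjusted p = 0.00630 by limma) and did not pass in Sohlh2 KO.

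The list for entry to meiosis held 33 genes, 23 of them measured, and 8 were higher and 1 lower in each knockout. Its median log2 difference was 0.25 in Sohlh1 KO and 0.16 in Sohlh2 KO. With chip as a block the counts were 8 higher and 1 lower in Sohlh1 KO, and 4 higher and 0 lower in Sohlh2 KO. That fit called 5681 of all 24451 tested probes in Sohlh1 KO and 2515 in Sohlh2 KO, in either direction. The shares of all genes given above are for the fit without a block. Dazl and Dnd1 are also in the germ cell list above, Figla in the oocyte list and Wnt4 in that of granulosa cells.

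Spo11, the enzyme that makes the DNA breaks of meiotic recombination, averaged 5.11 ± 0.34 (SD, n = 4) in wild type, where 2 of 4 arrays were above background. The knockouts averaged 8.72 ± 0.58 (SD, n = 4) for Sohlh1 KO and 8.38 ± 0.47 (SD, n = 3) for Sohlh2 KO, above background on all 7 arrays. The change was 12.2-fold in Sohlh1 KO (adjusted p = 3.68e-07) and 9.65-fold in Sohlh2 KO (adjusted p = 2.78e-06 by limma). With wild type partly at background, these sizes depend on the background step: in log2 they were 3.61 and 3.27, and with no background correction 1.83 and 1.56, still called. Its other measured probe rose by 1.41 and 0.85 in log2 (adjusted p = 1.98e-05 and 0.00331 by limma), so both probes were called and differed in size.

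Dazl, the germ cell RNA-binding protein that makes cells competent for meiosis, averaged 9.14 ± 0.20 (SD, n = 4) in wild type, and the knockouts averaged 11.14 ± 0.64 (SD, n = 4) for Sohlh1 KO and 10.65 ± 0.23 (SD, n = 3) for Sohlh2 KO. It was 4.01-fold and 2.85-fold higher (adjusted p = 4.62e-05 and 0.00127 by limma). Dnd1, an RNA-binding protein needed for germ cell survival, was 2.29-fold and 2.41-fold higher (adjusted p = 7.16e-05 and 0.000110 by limma). Rec8, the meiotic cohesin subunit that retinoic acid induces beside Stra8, named after its values were seen, averaged 7.12 in wild type, 8.57 in Sohlh1 KO and 8.67 in Sohlh2 KO. It was 2.74-fold and 2.94-fold higher (adjusted p = 0.00317 and 0.00437 by limma), and the Sohlh2 KO call was lost once chip was a block (adjusted p = 0.103).

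The 1 gene that fell was Nanos2, which blocks meiosis in male germ cells. It averaged 7.66 ± 0.36 (SD, n = 4) in wild type, and the knockouts averaged 5.96 ± 0.47 (SD, n = 4) for Sohlh1 KO and 6.24 ± 0.26 (SD, n = 3) for Sohlh2 KO, 3.26-fold and 2.69-fold lower (adjusted p = 9.61e-05 and 0.00106 by limma). In Sohlh2 KO the call was lost once chip was a block (adjusted p = 0.0577 by limma). Of the remaining calls, Sycp1, Fgf9, Wnt4 and Rspo1, named after their values were seen, were higher in both knockouts. Sycp1, a protein of the synaptonemal complex, showed the largest of these differences, at 2.26 in Sohlh1 KO and 1.83 in Sohlh2 KO in log2 (adjusted p = 0.000231 and 0.00285 by limma). Its wild-type mean was 5.43, close to the background level of 4.92 to 5.24. Rspo1 and Wnt4, signals of female gonad development, were 1.66-fold and 1.40-fold higher in Sohlh1 KO (adjusted p = 0.00155 and 0.0106 by limma), and both lost the Sohlh2 KO call in the fit that blocks for chip (adjusted p = 0.100 and 0.135). Fgf9, a signal known for testis development, did not pass in Sohlh1 KO with chip blocked (adjusted p = 0.199), with cyclic loess (adjusted p = 0.0904), or without wild type 1 or 3 or Sohlh1 KO 3 or 4 (adjusted p from 0.0578 to 0.0778 by limma). Another Fgf9 probe differed by -0.18 in Sohlh1 KO and 0.43 in Sohlh2 KO and did not pass.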

How the data were processed

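Ovarian RNA was labelled with biotin and each sample put on 1 array of an Illumina MouseWG-6 v2 BeadChip. Scans were read with BeadStudio 3.2, per the submitters' processing notes. The intensity values deposited by the authors were linear and came with no detection p-values. They are described as non-normalized, but arrays differed by no more than 11.2 units at equal rank, which is what quantile normalization leaves. The log2 values of the deposited series matrix equalled their log2 to within 0.005.

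The normexp model of limma 3.58.1 (R 4.3.3, statmod 1.5.0) corrected background from 1276 olfactory receptor probes with an offset of 16, and quantile normalization and log2 followed. The background level of an array was the 95th percentile of those probes. A probe was kept if it exceeded this level on 3 or more arrays (24451 of 45281 probes). Per array, 45.2% to 52.6% of probes exceeded it. A single symbol was annotated for 34885 probes, several for 18 and none for 10378. Group means of the 3 genotypes were estimated with limma from all 11 arrays, leaving 8 residual degrees of freedom, and two-sided p-values were Benjamini-Hochberg adjusted over all kept probes. Genes outside the members were represented by their kept probe of highest mean (13350 genes), and up to 4 per list with the smallest adjusted p are named. Genes most like a member were the 3 of highest correlation. Members and lists were chosen with earlier results of these data known. Scripts were tested on simulated data.

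Groups and replicate numbers came from sample titles, and the chip from column names. Samples of equal number were not taken as paired. No label says that they are, and their deviations from group means correlated at 0.0343 to 0.129 between Sohlh1 KO and wild type and at -0.0404 to 0.0266 between Sohlh2 KO and wild type. Arrays within a group correlated at 0.969 to 0.992. Alternatives changed the background correction, the offset (50), the source (series matrix), the normalization (cyclic loess), the dim-probe filter (none, or the 99th percentile) and the unit (1 probe per gene). Others added replicate or chip as a block, used only 2 groups, or left out single arrays or wild type 2 and 3, whose titles carry an unexplained letter. Fits within 1 chip and the alternatives for the other lists were added after the data were seen. Since each alternative starts from quantile-normalized values, a shift shared by most genes could not be seen.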

Additional observations from a re-analysis of the deposited data

Results flagged for a closer look

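In wild type, Crabp1 read 8.43 on array 4, while the nearest of the other wild-type arrays read 7.43, a gap of 0.847 of the group's range and above Dixon's critical value for 4 samples. It was 1 of 22 groups of 4 arrays examined among the members, and chance marks about 1 in 20. Without wild type 4 the log2 difference of Crabp1 was 1.67 in Sohlh1 KO and 1.73 in Sohlh2 KO, both called by limma.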

How the results depend on the processing

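Among the member probes and named genes, 997 alternative values of called differences kept direction and call, 57 lost the call and 1 turned sign. Nrip1 in Sohlh2 KO was 0.0904 with chip as a block. Of uncalled differences, 496 kept both, 10 became called and 24 turned sign. No member call was lost under the background, offset, filter or cyclic loess alternatives, but sizes moved by over 1.5 times: with no background correction, Sohlh1 KO differences went from 2.11 to 0.79 for Meioc, from 0.68 to 0.31 for Crabp2 and from 1.08 to 0.57 for Aldh1a2 probe 2. Those of Rarb went from 0.94 to 0.58 for probe 1 and from 1.25 to 0.75 for probe 2. Cyclic loess moved the share of higher among called probes from 52.2% to 43.4% in Sohlh1 KO and from 51.5% to 39.4% in Sohlh2 KO, with medians of all probes moved by under 0.1.

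Probes called in Sohlh1 KO against wild type numbered 7144, 4367 with 1 probe per gene, 3868 without wild type 2 and 3, and 5534 to 7740 with each array left out (7 to 8 member probes). In Sohlh2 KO they numbered 5572, 3403 with 1 probe per gene, 2515 with chip as a block (4 of the members), 2884 without wild type 2 and 3, and 3978 to 6844 with each array left out (6 to 7 member probes). Between the knockouts 13 were called, 2 without background correction, 8 with offset 50, 2 with the series matrix, 7 without a filter, 5 with 1 probe per gene, 45 with chip as a block, 3 with only the groups compared, 4 without wild type 2 and 3, and 1 to 96 with each array left out (0 member probes): 96 without Sohlh1 KO 1, 1 without Sohlh1 KO 3 or Sohlh2 KO 4, and 5 to 7 without wild type 1, 2 or 3 or Sohlh2 KO 3. With the replicate number as a block, 7063, 5117 and 6 were called in these comparisons, with 8, 7 and 0 member probes.

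Uncalled differences that turned sign when 1 array was left out ranged as follows. Cyp26b1 in Sohlh1 KO ranged from -0.392 to 0.0319, and Cyp26a1 probe 1 in Sohlh2 KO from -0.370 to 0.0516. Between the knockouts Meioc ranged from -0.226 to 0.232, Cyp26b1 from -0.125 to 0.443, Cyp26a1 probe 1 from -0.417 to 0.00470, Aldh1a2 probe 1 from -0.0470 to 0.192, Aldh1a2 probe 2 from -0.0177 to 0.321, Rarb probe 3 from -0.208 to 0.230 and Crabp1 from -0.262 to 0.267. With chip as a block, and within 1 chip, the knockouts differed by -0.334 for Meioc, -0.00125 for Aldh1a2 probe 1, -0.0173 for Rarb probe 2 and 0.137 for Crabp1. With the replicate block they differed by -0.0838 for Meioc and 0.158 for Crabp1. The causes were not tested. Signal over background left Stra8 and 1 Cyp26a1 probe not well above background.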

Other observations

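Red blood cell markers were higher in the knockouts, and leukocyte markers only in part. The 3 measured red blood cell markers summed to 6390 to 10900 in linear normalized intensity in wild type, from 27000 to 41100 in Sohlh1 KO and from 24000 to 33500 in Sohlh2 KO, with 3 of 3 called higher in Sohlh1 KO and 2 of 3 in Sohlh2 KO. The 5 measured leukocyte markers summed to 914 to 1920, 4020 to 24900 and 1690 to 8640, with 2 of 5, S100a8 and S100a9, higher in each knockout, and the sums of Sohlh2 KO overlap those of wild type. The 4 measured endothelial markers summed to 2350 to 3130, 2560 to 2900 and 2170 to 2820, with 2 of 4 higher in Sohlh1 KO and 1 of 4 in Sohlh2 KO. Shares called higher over all genes were 15.4% in Sohlh1 KO and 11.7% in Sohlh2 KO.

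Markers of other cell types were lower or mixed. The 6 pregranulosa and granulosa markers summed to 7220 to 8300 in wild type, from 4450 to 5610 in Sohlh1 KO and from 4640 to 5500 in Sohlh2 KO, with 1 of 6 higher and 1 of 6 lower in each knockout. The lower 1 was Inha, which averaged 11.77 in log2 in wild type, 8.49 in Sohlh1 KO and 8.45 in Sohlh2 KO. The higher 1 was Wnt4. The 4 measured theca and steroidogenic markers summed to 1890 to 3130, 175 to 261 and 167 to 209, and all 4 were lower in both knockouts. The 5 measured smooth muscle markers summed to 34600 to 37400, 13500 to 19500 and 22000 to 25300, with 4 and 3 of 5 lower. The 5 fat markers summed to 7060 to 10800, 3470 to 4910 and 4590 to 5130, with 3 of 5 lower in each. Among them Cidec entered the test only through the wild-type arrays, since no knockout array was above background. Epithelial markers were called in both directions, 1 higher and 3 lower of 8 in Sohlh1 KO and 2 higher and 2 lower in Sohlh2 KO. Shares over all genes were 15.4% higher and 15.9% lower in Sohlh1 KO, and 11.7% higher and 12.5% lower in Sohlh2 KO. The part of the marker shifts in the member differences was not tested.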
